A study of Mus musculus with 6 samples.

Results

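The transcription factor genes described here are Isl1 and 9 others of the spinal motor neuron (MN) lineage, namely Isl2, Lhx3, Lhx4, Mnx1, Onecut1, Onecut2, Foxp1, Neurog2 and Olig2. They were picked by gene symbol, and all 10 were found among the 23038 genes listed in each file. Isl1 was selected on its difference between knockdown and control in these same libraries, and the other genes were added with results of that comparison known. Their values in that comparison are therefore descriptions. The calls made over all genes are printed beside them, and nothing is read from these calls.

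The libraries came from NSC-34 cells, a mouse MN-like line made by fusing neuroblastoma cells with cells of embryonic spinal cord, which grew in serum-containing medium. There were 3 libraries from cells given control siRNA (siNC) and 3 from cells given siRNA against Qk (siQk), the gene of the Quaking RNA-binding proteins, and RNA was collected 72 h after transfection. The siQk libraries drew on 3 different siRNAs, and which of them each culture got is not stated. The replicates are separate cultures of 1 clonal line, with no animal or donor behind them, so the spread between them is that of culture, transfection and library, and in siQk it can also hold differences between the siRNAs. The comparison addresses which transcripts differ in level when Qk is depleted. Library totals ran from 43000503 to 53565950 counts. Qk, the target, had 9.68, 8.18 and 14.9 RPKM (counts scaled by exon length and by library total) in siNC replicates 1 to 3 and 1.39, 1.71 and 1.10 RPKM in siQk replicates 1 to 3, so all 6 libraries fitted their labels.

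LIM homeodomain proteins pair a DNA-binding homeodomain with zinc-binding LIM domains, through which they join the adaptor Ldb1. In newborn spinal MNs, Isl1 and Lhx3 enter a shared Ldb1 complex that turns on MN genes, including those for acetylcholine synthesis and packaging. Olig2 and Neurog2 act earlier, in progenitors, Mnx1 (Hb9) holds the MN state against interneuron fate, Onecut factors help to start Isl1 expression, and Foxp1 sorts limb-innervating MN columns. Isl1 is also a regular factor of sympathetic neurons and of neuroblastoma, where Phox2a and Hand2 accompany it.

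Several of the 10 genes are close paralogs, so sequences are shown to tell whether a read could come from either copy. The windows below are from the GENCODE release M21 transcripts of GRCm38, written 5′ to 3′ on the transcript strand, with the longest stretch that the pair shares without a mismatch in capitals and 10 flanking bases on each side. All of them are coding sequence of exon 4, in the part that encodes the homeodomain. The Isl1 window lies at chr13:116303226-116303268 (minus strand), Isl2 at chr9:55544137-55544179 (plus), Lhx3 at chr2:26202365-26202404 (minus) and Lhx4 at chr1:155705187-155705226 (minus).
Isl1: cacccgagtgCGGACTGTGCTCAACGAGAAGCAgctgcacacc
Isl2: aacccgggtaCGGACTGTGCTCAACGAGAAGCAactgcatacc
Lhx3: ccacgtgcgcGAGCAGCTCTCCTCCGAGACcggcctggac
Lhx4: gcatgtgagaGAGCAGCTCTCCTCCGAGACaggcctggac
The shared stretch was 23 bases for Isl1 and Isl2 and 20 bases for Lhx3 and Lhx4, and 26 bases for Onecut1 and Onecut2. The reads were 75 bases long, and 0 words of 75 bases were common to the transcripts of any of these pairs. A whole read free of mismatches therefore belonged to 1 gene of the pair.

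Quaking proteins bind RNA at a core of ACTAAC or ACTAAT (written here as DNA), so the annotated transcripts were searched for these letters on the transcript strand. In the longest protein-coding transcript of Isl1, of 2516 bases, there were 2 occurrences, both ACTAAT. They are shown with 10 bases on each side and the core in capitals. The exon 4 and exon 5 occurrence lies in the coding sequence and crosses the splice junction, with its window between chr13:116301766 and chr13:116303058 (minus strand), so the letters are joined only in the spliced transcript. The exon 6 occurrence lies in the 3′ UTR at chr13:116298292-116298317 (minus strand).
Isl1 exons 4 and 5: caacgacaaaACTAATatccagggga
Isl1 exon 6: ggactatttcACTAATaaacgtttgg
Among 21877 protein-coding genes, 43.3% had at least 1 occurrence in their longest coding transcript and 18.9% had at least 2. Per kilobase, Isl1 had 0.795 occurrences, a density that 7.09% of genes reached or passed. Isl2, Lhx3 and Mnx1 had 0 occurrences, Lhx4, Foxp1, Neurog2 and Olig2 had 1 each, Onecut1 had 2 and Onecut2 had 4, all of these in the 3′ UTR. Qk itself had 7. These are matches of letters in annotated transcripts, and no binding was measured here.

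The label of the cells was set against 7 markers of MNs. Prph, a neurofilament protein of peripheral axons, was abundant at 698 ± 218 RPKM in siNC (SD, n = 3). Isl1 was at 4.79 RPKM and Slc18a3, the vesicular acetylcholine transporter, at 2.02 ± 0.315 RPKM (SD, n = 3). The other 4 markers were at or near 0. Lhx3 had 0.198 RPKM, Chat, which makes acetylcholine, 0.0509 RPKM, Mnx1 0.0411 RPKM, and Slc5a7, the choline transporter, 0.00543 RPKM in siNC. The filter on low counts, which 12665 of 23038 genes passed, kept Prph, Isl1 and Slc18a3 of these 7 markers. Of 12 genes fixed as markers of noradrenergic neuroblastoma it kept 11, the lowest being Slc18a1 at 0.561 RPKM in siNC. Hand2 stood at 176 ± 26.9 RPKM and Phox2a at 118 ± 58.6 RPKM in siNC (SD, n = 3), and only Slc6a2, the noradrenaline transporter, was close to 0 with 3 counts in the siNC libraries together. The 7 MN markers were thus split, with Prph, Isl1 and Slc18a3 present and Lhx3, Chat, Mnx1 and Slc5a7 at or near 0. The 10 genes are called here by their names, with no identity read into the cells.

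**Figure D1:**
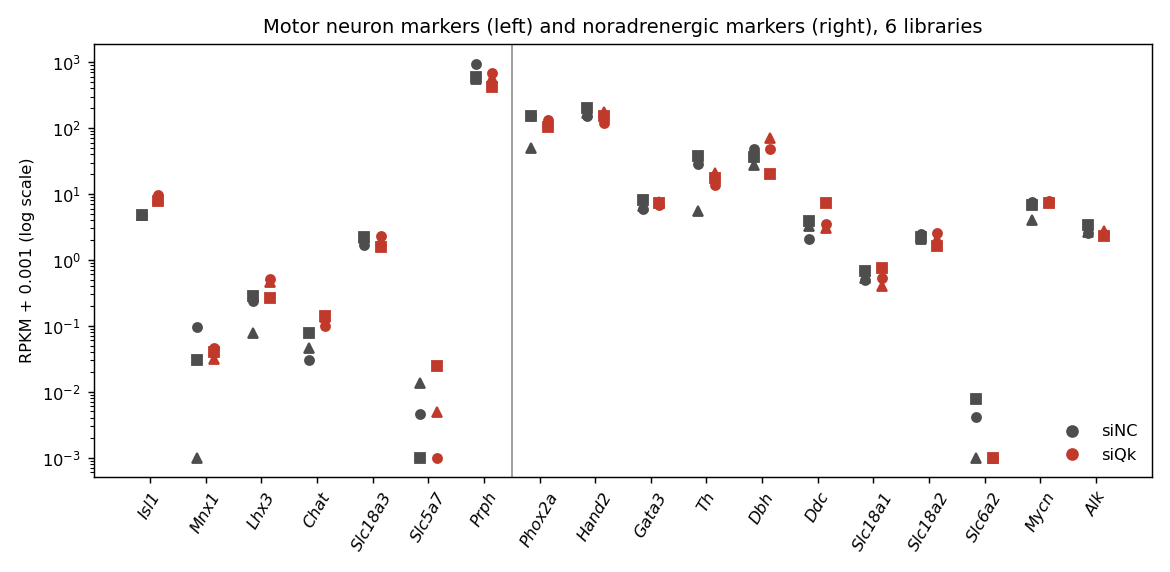
RPKM plus 0.001 on a log axis for 7 MN markers (left of the grey line) and 11 noradrenergic neuroblastoma markers (right), with circles, squares and triangles for replicates 1, 2 and 3, siNC in grey and siQk in red. Mnx1, Lhx3, Chat and Slc5a7 stay under 1 RPKM in every library, while Phox2a and Hand2 lie above 50 RPKM.

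In control cells the 10 genes covered a wide range of levels per length. Isl1 was the highest in RPKM, and its 3 siNC libraries (4.75 to 4.83 RPKM) lay above those of Isl2, which followed at 2.65 to 4.68 RPKM. Isl2 and Foxp1 (3.02 to 3.72 RPKM) overlapped, Foxp1 lay above Onecut2 (1.68 to 2.69 RPKM), and Onecut2 above Onecut1 (0.536 to 1.02 RPKM). Onecut1 and Lhx4 (0.289 to 0.605 RPKM) overlapped, Lhx4 lay above Lhx3 (0.0758 to 0.283 RPKM), and the ranges of Lhx3 and Mnx1, of Mnx1 and Neurog2, and of Neurog2 and Olig2 overlapped. Isl1 thus stood near the middle of all genes with a count in siNC, at the 51.1 percentile. The lengths are those of the files, which count 1851 exon bases for Lhx4 and 1823 for Onecut1 where GENCODE merges 5740 and 4113 bases, so the RPKM of these genes depends on the gene model.

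Isl1 (Entrez 16392, GRCm38 chromosome 13, 116298281 to 116309689, minus strand, sharing no exon bases with another annotated gene) had more transcript in the knockdown libraries. Its level was 4.83, 4.75 and 4.80 RPKM in siNC replicates 1 to 3 and 9.63, 7.80 and 8.33 RPKM in siQk replicates 1 to 3. The groups did not overlap, and the lowest siQk library stood well above the highest siNC library. The means were 4.79 ± 0.0365 and 8.59 ± 0.937 RPKM (SD, n = 3), a ratio of 1.79 and a log2 fold change of 0.82 (SE 0.097), on 806 to 961 counts in siNC and 1501 to 1715 counts in siQk. These are the values by which Isl1 was selected. Of the 12665 genes that passed the filter, 63 had a larger log2 fold change. In bulk RNA, more cells with Isl1 and more Isl1 RNA per cell cannot be told apart. Within siQk, replicate 2 had the most remaining Qk and the least Isl1, while replicate 3 had the least Qk and an intermediate level of Isl1. With 3 libraries and 3 siRNAs, a relation between remaining Qk and Isl1 was not tested. Over 14 alternative settings the log2 fold change of Isl1 ran from 0.72 to 0.88.

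**Figure D2:**
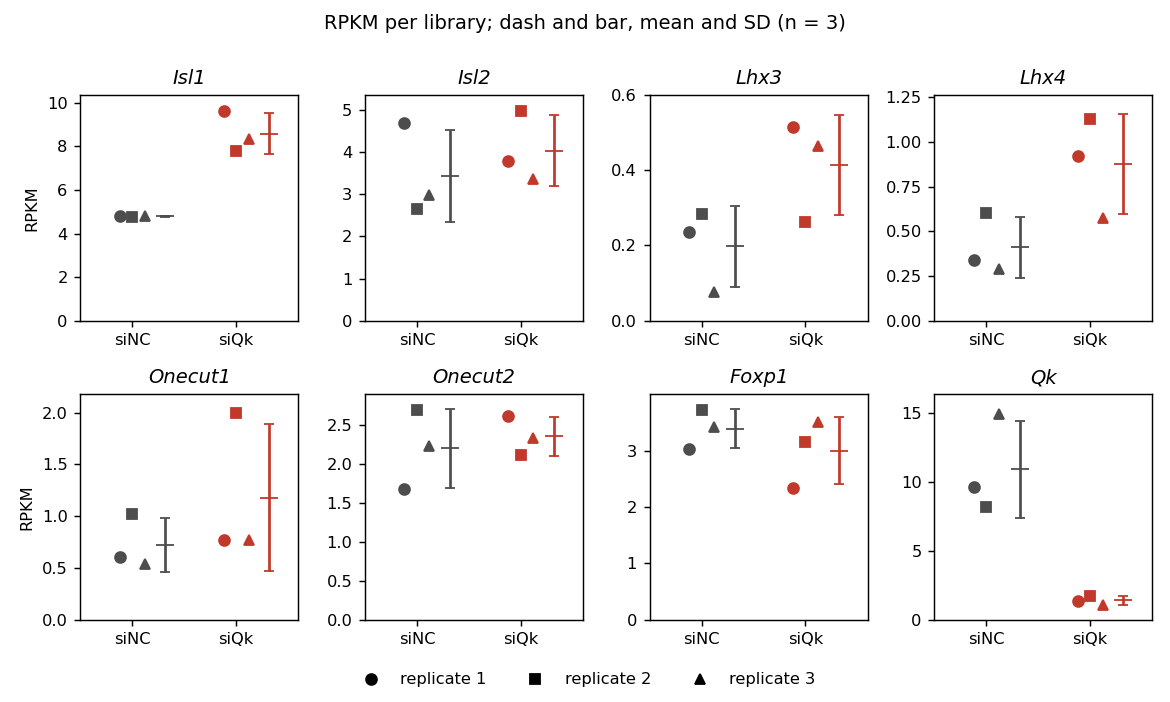
RPKM of 7 of the 10 genes and of Qk in each library (circle, square and triangle for replicates 1, 2 and 3), with the mean and SD of each group beside the points. Isl1 and Qk are the panels in which siNC and siQk do not overlap.

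The siNC libraries of Isl1 were unusually close together. Their coefficient of variation was 0.762%, where counting error alone at these depths gives 3.37%, and 19 of the 12665 genes had a smaller one. The median over all genes that passed the filter was 18.2%, and it was 19.5% over the 1226 genes of similar level. In siQk the coefficient of variation of Isl1 was 10.9% against 2.49% from counting, and the median over all genes was 14%. The small standard error of the Isl1 difference thus includes a control spread below the counting error. Each of the other 5 genes that passed the filter varied more in siNC than counting gives, from 10.3% for Foxp1 to 41.3% for Lhx4.

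**Figure D3:**
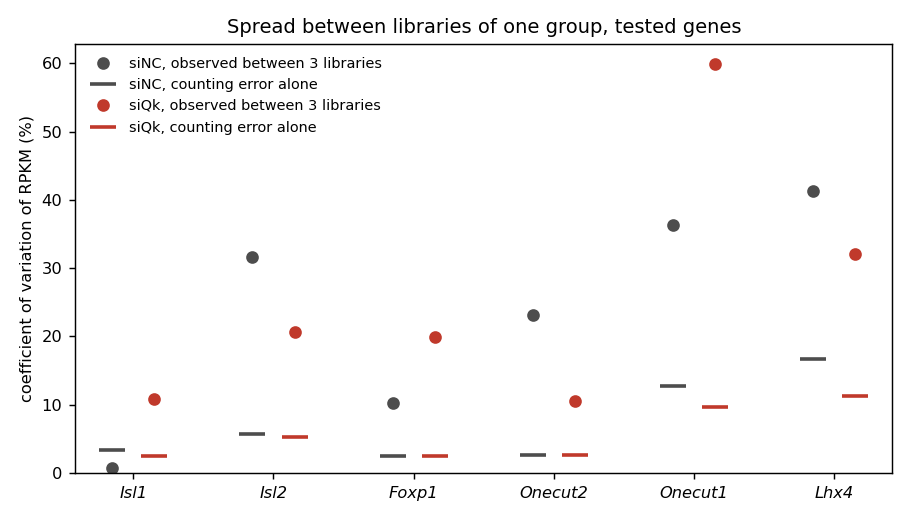
Coefficient of variation of RPKM between the 3 libraries of a group (points) and the value that counting error alone gives (dashes), for the 6 genes that passed the filter, siNC in grey and siQk in red. Isl1 in siNC is the point that lies below its dash.

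Isl2 (Entrez 104360, chromosome 9, 55538672 to 55546180, plus strand), the paralog of Isl1 that marks postmitotic MNs, did not share this pattern. It had 4.68, 2.65 and 2.97 RPKM in siNC and 3.78, 4.96 and 3.35 RPKM in siQk. The groups overlapped, with siNC replicate 1 nearly as high as siQk replicate 2. The log2 fold change was 0.21 (SE 0.30), and it was 0.49 without siNC replicate 1 and 0.030 without siQk replicate 2. The ratio of Isl2 to Isl1, both per length, was 0.969, 0.558 and 0.619 in siNC and 0.393, 0.636 and 0.403 in siQk. These ratios overlapped between the groups (0.715 ± 0.222 and 0.477 ± 0.138, SD, n = 3), and Isl1 was the higher of the pair in all 6 libraries.

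Lhx3 and Lhx4 encode LIM homeodomain factors that act in MN and ventral interneuron specification, and both were low. Lhx4 (Entrez 16872, chromosome 1, 155698031 to 155751684, minus strand) had 0.340, 0.605 and 0.289 RPKM in siNC and 0.925, 1.13 and 0.574 RPKM in siQk, from 23 to 112 counts per library. The groups overlapped narrowly, since siQk replicate 3 lay under siNC replicate 2. The log2 fold change was 1.07 (SE 0.40) and ran from 0.85 to 1.42 when 1 library was left out. Lhx4 passed the filter on low counts through its siQk libraries. Lhx3 (Entrez 16871, chromosome 2, 26200212 to 26208289, minus strand) did not pass the filter. It had 0.235, 0.283 and 0.0758 RPKM in siNC and 0.517, 0.264 and 0.464 RPKM in siQk, on 9 to 65 counts. Here siQk replicate 2 fell inside the siNC range. Summed over libraries, Lhx3 had 79 counts in siNC and 163 in siQk, a ratio of 2.01 per total count with a 95% interval of 1.52 to 2.66 that covers counting error only. In the GENCODE model, an antisense gene, Gm27196, shares 188 exon bases with Lhx3. The library kit as named does not mark strand, so reads of the 2 genes cannot be told apart there. Whether the files count those bases is not known.

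Mnx1, Neurog2 and Olig2 were at the limit of detection. Mnx1 (Entrez 15285, chromosome 5, 29473034 to 29478470, minus strand) had 7, 2 and 0 counts in siNC and 3, 3 and 2 counts in siQk, a ratio of 0.865 with a counting interval of 0.29 to 2.52. Neurog2 (Entrez 11924, chromosome 3, 127633135 to 127635631, plus strand), a proneural factor of progenitors, had 0, 4 and 0 counts in siNC and 5, 5 and 6 counts in siQk. The siQk libraries of Neurog2 all lay above the siNC libraries in RPKM, but the ratio of 3.89 had a counting interval of 1.26 to 16.0. Olig2 (Entrez 50913, chromosome 16, 91225457 to 91228677, plus strand), the factor of the MN and oligodendrocyte progenitor domain, had 1 count in siNC and 0 in siQk. A count of 0 over the siQk libraries allows up to 0.00848 RPKM.

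The Onecut genes differed from each other in level and steadiness. Onecut1 (Entrez 15379, chromosome 9, 74861921 to 74891781, plus strand) had 0.603, 1.02 and 0.536 RPKM in siNC and 0.770, 1.997 and 0.774 RPKM in siQk. A single library, siQk replicate 2, stood above the rest, and the log2 fold change of 0.70 (SE 0.51) was 0.083 without it. In the GENCODE model of 4113 bases, the lincRNA Gm20649 shares 2171 exon bases with Onecut1 on the same strand. The files count 1823 bases and give no coordinates, so whether these counts hold reads of Gm20649 is not known. Onecut2 (Entrez 225631, chromosome 18, 64340020 to 64400987, plus strand) had 1.68, 2.69 and 2.23 RPKM in siNC and 2.61, 2.12 and 2.33 RPKM in siQk. The siQk libraries lay inside the siNC range, and the log2 fold change of 0.076 (SE 0.22) was -0.091 without siNC replicate 1. The ratio of Onecut2 to Onecut1 was between 2.64 and 4.17 in 5 libraries and 1.06 in siQk replicate 2.

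Foxp1 (Entrez 108655, chromosome 6, 98925338 to 99522721, minus strand) was the only gene of the 6 that passed the filter to have a lower mean in siQk. It had 3.02, 3.72 and 3.42 RPKM in siNC and 2.34, 3.14 and 3.50 RPKM in siQk. The groups overlapped, with siQk replicate 1 alone below the siNC range, and the log2 fold change was -0.20 (SE 0.19). It was -0.053 without siQk replicate 1 and -0.34 without siQk replicate 3. The annotated genes Gm20696 and Gm49348 share 300 and 135 exon bases with Foxp1.

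Of the 10 genes, 6 passed the filter and 0 of these were called changed by the edgeR quasi-likelihood test (p below 0.01 with a Benjamini-Hochberg p below 0.1), where 0.0079% of all genes tested were called, which is Qk alone. DESeq2 called 19 genes, Isl1 among them, and the edgeR exact test called 5, none of them among the 10. Isl1 was the only gene of the 6 with groups that did not overlap, beside 8.84% of all genes tested. The median log2 fold change was 0.45 for the 6 genes and 0.0034 for all genes tested. As the 10 genes were chosen with this comparison known, and 4 of them did not pass the filter, nothing is read from these shares.

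Transcripts of the partners of LIM homeodomain proteins summed to a higher RPKM than those of the LIM homeodomain genes. In siNC the 10 genes summed to 14.3 to 15.8 RPKM, non-LIM factors included, and 8 other LIM homeodomain genes to 6.12 to 14.2 RPKM. All 10 genes of the cofactor list passed the filter, with 0 called by edgeR, DESeq2 or the exact test. Their median log2 fold change was -0.055, and their summed level was 246 to 258 RPKM in siNC and 237 to 253 RPKM in siQk. Ldb1, the adaptor, averaged 49.9 ± 3.57 RPKM in siNC against 48.2 ± 5.05 RPKM in siQk, and its stabilising partner Ssbp3 had 39.9 ± 8.88 and 42.99 ± 0.802 RPKM (SD, n = 3). Lmo1, an LIM-only protein that binds Ldb1 without touching DNA, was the most abundant at 63.3 ± 17.96 RPKM in siNC against 62.97 ± 10.5 RPKM in siQk (SD, n = 3). Rlim, the ubiquitin ligase of Ldb1, had a log2 fold change of -0.24 (SE 0.33).

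Among the cofactors, 2 genes had an unadjusted p under 0.05, both of the LIM-only family and in opposite directions. Over all genes tested, 1.2% were higher and 1.69% lower in siQk at that p. Lmo2 had 4.69, 4.98 and 3.87 RPKM in siNC and 3.05, 2.14 and 3.23 RPKM in siQk. Its groups did not overlap, and its log2 fold change was -0.71 (SE 0.21). Lmo3, which is expressed in neuroblastoma, had 1.03, 0.776 and 1.24 RPKM in siNC and 2.40, 1.17 and 2.15 RPKM in siQk. Its groups overlapped through siQk replicate 2, and its log2 fold change was 0.88 (SE 0.39). Neither passed the call over all genes tested.

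Of 8 other LIM homeodomain genes, 4 passed the filter, 0 were called by any of the 3 tools and 0 had an unadjusted p under 0.05. All 4 had a higher mean in siQk, and the median of their log2 fold changes was 0.41. Lhx2 had 6.30, 7.62 and 3.26 RPKM in siNC and 6.45, 9.51 and 6.87 RPKM in siQk, and Lhx1, Lhx6 and Lhx9 followed at lower levels. The extremes of each gene lay in the same 2 libraries. siNC replicate 3 was the lowest and siQk replicate 2 the highest library for Lhx1, Lhx2, Lhx6 and Lhx9, and also for Lhx4 and Onecut1. Over all genes tested, 9.85% had this pair of extremes, a count made after the values were seen. These were also the libraries with the fewest and the most total counts, 43000503 and 53565950. A part of library depth in the shared extremes was not tested. The median of the 4 genes was 0.15 without siNC replicate 3, 0.15 without siQk replicate 2 and 0.66 without siNC replicate 2. Isl1 did not follow these libraries, since siNC replicate 3 lay between the other siNC libraries and siQk replicate 2 was its lowest siQk library.

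**Figure D4:**
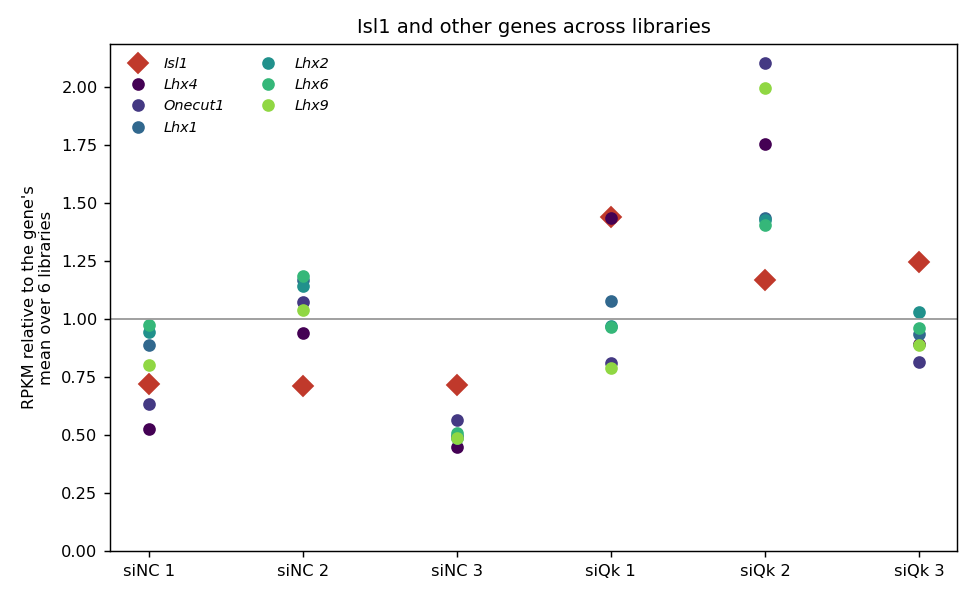
RPKM in each library relative to the mean of the gene over 6 libraries, for Isl1 (red diamonds) and for Lhx4, Onecut1, Lhx1, Lhx2, Lhx6 and Lhx9 (circles). The circles are lowest in siNC 3 and highest in siQk 2, while Isl1 is at a common level in siNC and above its mean in all siQk libraries.

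The wider set of MN transcription factors held 21 genes, of which 13 passed the filter and 0 were called or had an unadjusted p under 0.05, with a median log2 fold change of -0.054. Ebf3, a factor of neuronal differentiation, was the most abundant at 85.7 ± 34.6 RPKM in siNC against 67.4 ± 9.54 RPKM in siQk (SD, n = 3), and its log2 fold change was -0.37 (SE 0.36). Etv4, which marks motor pools, had 39.4 ± 5.65 and 33.1 ± 3.85 RPKM, and its relative Etv5 had 40.1 ± 8.20 and 34.2 ± 9.31 RPKM (SD, n = 3).

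Of 25 effector genes of MNs, 17 passed the filter and 0 were called or had an unadjusted p under 0.05. Their median log2 fold change was -0.081. Uchl1, a neuronal ubiquitin hydrolase, averaged 1107 ± 195 RPKM in siNC against 1077 ± 101 RPKM in siQk, and Ret, the GDNF receptor kinase, had 173 ± 39.1 and 180 ± 35.8 RPKM (SD, n = 3). Prph had a log2 fold change of -0.34 (SE 0.32), Snap25, a synaptic vesicle fusion protein, 0.25 (SE 0.14), and Slit3, an axon guidance cue, -0.20 (SE 0.17). Slc18a3 had 1.66, 2.25 and 2.15 RPKM in siNC and 2.29, 1.56 and 1.92 RPKM in siQk, so the groups overlapped. Chat, below the filter, had 0.0297, 0.0777 and 0.0453 RPKM in siNC and 0.0997, 0.141 and 0.136 RPKM in siQk. Its groups did not overlap, on 33 counts in siNC and 85 in siQk, a ratio of 2.51 with a counting interval of 1.66 to 3.87, and every value was under 1 RPKM.

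The list of progenitor genes was mixed. Of 27, 13 passed the filter and 7 had 0 counts in all 6 libraries, among them Sox1, Sox3 and Nkx6-1. None of the 13 was called by any of the 3 tools, 1 had an unadjusted p under 0.05, and the median log2 fold change was 0.0046. That gene was Id2, an inhibitor of proneural factors, at 3.89, 3.12 and 2.89 RPKM in siNC and 5.31, 10.6 and 5.29 RPKM in siQk. Its groups did not overlap, siQk replicate 2 stood far above the others, and the log2 fold change was 1.07 (SE 0.35). The E proteins that Id2 binds, Tcf3, Tcf4 and Tcf12, had log2 fold changes of 0.087 (SE 0.35), 0.064 (SE 0.35) and -0.22 (SE 0.26), and Hes1, a Notch target, -0.25 (SE 0.21).

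Interneuron factors were sparse, with 4 of 22 above the filter, 9 at 0 counts in all libraries, and 0 called or at an unadjusted p under 0.05. Gata2, also a factor of sympathetic neurons (25.0 ± 9.42 RPKM in siNC against 21.2 ± 1.68 RPKM in siQk, SD, n = 3) and Tal1 (4.75 ± 0.411 and 3.91 ± 1.30 RPKM) had log2 fold changes of -0.25 (SE 0.35) and -0.30 (SE 0.32), Prrxl1 had -0.066 (SE 0.22), and Pou4f1, whose groups did not overlap, had 0.30 (SE 0.21).

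Single noradrenergic genes differed in both directions. None of the 11 genes above the filter was called by any of the 3 tools or had an unadjusted p under 0.05, and their median log2 fold change was 0.033. Hand2 had a log2 fold change of -0.27 (SE 0.19), Phox2a 0.033 (SE 0.52) and Ddc, which decarboxylates dopa, 0.55 (SE 0.47), while Th, which makes dopa, had -0.47 (SE 0.87). Phox2a was 50.2 RPKM in siNC replicate 3, with the other 5 libraries at 102 to 153 RPKM.

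Markers of other cell types were low and were looked at because Quaking proteins are best known in oligodendrocytes. Of 10 oligodendrocyte lineage markers 5 passed the filter, and the sum of the list was 11.4 to 12.7 RPKM in siNC and 9.73 to 14.1 RPKM in siQk. Sox10, Olig1 and Nkx2-2 were at or near 0, and 0 genes were called or had an unadjusted p under 0.05. The median log2 fold change was -0.14. Groups did not overlap for 1 of the 5, lower in siQk, beside 8.84% of all genes tested in either direction. Pdgfra was the most abundant, with a log2 fold change of 0.092 (SE 0.33), and Cnp had 0.57 (SE 0.37) and Cspg4 -0.17 (SE 0.43). Of 12 markers of astrocytes, microglia and fibroblasts, only Pdgfrb passed the filter, at 3.65, 3.11 and 5.27 RPKM in siNC and 2.83, 0.839 and 2.46 RPKM in siQk. Its log2 fold change was -1.01 (SE 0.61), with an unadjusted p under 0.05 and no call. That list summed to 3.39 to 5.68 RPKM in siNC and 1.22 to 3.34 RPKM in siQk. Pdgfrb was the larger part in each library, with 0.839 of 1.22 RPKM in siQk replicate 2. Aif1 and Aldh1l1 came next in mean level at under 0.3 RPKM, and Aqp4 and Cx3cr1 had 0 counts. Isl1 is not a marker of these cells, and a part of their markers in its difference was not tested.

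**Figure D5:**
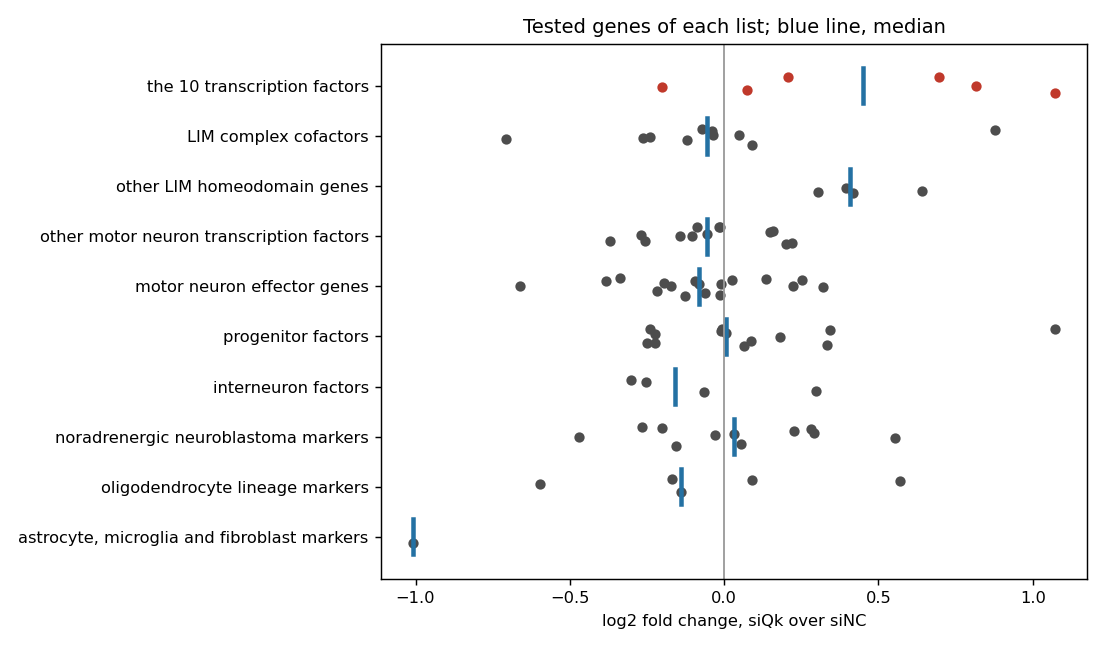
Log2 fold change of siQk over siNC for each gene above the filter, by list, with the median of the list as a blue line and the 10 transcription factors in red. The medians of the lists other than the 10 genes, the LIM homeodomain genes and the 1 gene of the last list lie between -0.16 and 0.033.

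Genes whose log2 CPM most resembled that of Isl1 over the 6 libraries were listed as a description, and these points share the group difference and the library depths. The highest Pearson r was that of Eny2 (0.976), a subunit of chromatin and mRNA export complexes, followed by Ttc39c (0.971), Stk33 (0.971), Folr2 (0.971) and Gm14403 (0.955), each with n = 6. Eny2 had 42.8, 44.6 and 40.2 RPKM in siNC and 55.6, 52.9 and 55.2 RPKM in siQk, and none of the 5 was called. The lowest r values were those of Pgs1 (-0.992), an enzyme of cardiolipin synthesis, Nipal3 (-0.986), Chka (-0.978), a choline kinase, Alkbh5 (-0.976), an RNA demethylase, and Tbrg4 (-0.968). Qk had -0.943. Among the other genes of the set, r with Isl1 was 0.733 for Lhx4, 0.32 for Onecut1, 0.308 for Isl2, 0.284 for Onecut2 and -0.614 for Foxp1.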

How the data were processed

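The authors selected poly-A RNA from separate cultures, made libraries with a TruSeq kit, sequenced pairs of 75-base reads, aligned them with OLego and counted genes with Quantas. Per the labels the build is mm10. The deposited files give, per gene, an expected count, an exon length and an RPKM, which the authors scaled by that length and the column total. In each library 21.9% to 22.9% of these deposited expected counts held fractions and were rounded.

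Genes were tested with edgeR 4.0.16 (R 4.3.3) by its quasi-likelihood method over all 6 libraries, with TMM scaling (factors 0.956 to 1.02), genes kept at a mean log2 CPM above 0 (12665 of 23038), and calls at p under 0.01 and Benjamini-Hochberg adjusted p under 0.1 over all genes kept. Fold changes are log2 of siQk divided by siNC, and standard errors come from the spread of log2 CPM (prior count 2) between 3 libraries a group. Counting intervals are 95% exact binomial, cover counting error only, and a count of 0 was taken to allow 3 counts.

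The 10 genes and the lists were chosen with earlier results of these data known. The text names the 10 genes, Qk, the MN markers, in each other list up to 3 genes of smallest p and up to 3 of highest RPKM, and the 5 genes of highest and of lowest r with Isl1. Other list genes, such as those at 0 counts, were named after their values were seen, and 2 genes of the lists are not reported here by name. Alternatives tried were further scalings and filters, DESeq2 1.42.0, the edgeR exact test, a replicate block and leaving out each library. Positions and transcripts are GENCODE M21 (GRCm38), and the files carry no coordinates. The scripts were tested on simulated counts. No protein sequence was used here.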

Additional observations from a re-analysis of the deposited data

How the results depend on the processing

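The number of genes called changed was 1 in the main test (edgeR quasi-likelihood, Qk), 19 by DESeq2 and 5 by the edgeR exact test, and ran from 0 (without siNC replicate 1) to 1 when each library was left out. Of the 6 genes above the filter, 1 had groups that did not overlap, and leaving out each library gave 1 to 3, the highest without siNC replicate 1 or 2. Genes of the other lists at an unadjusted p under 0.05 numbered 4, and 7 with no filter, where more genes were tested. They ran from 3 to 6 over the libraries left out. The siNC level of Isl1, 4.79 RPKM, was 4.84 per kilobase as TMM-scaled CPM, since the scaling divides by other totals. For the other moved values the cause was not tested. Every siQk library of Isl1 lay above every siNC library, so the sign of its log2 fold change could hardly move. It was positive under all 14 alternatives, which is no test of Isl1. Onecut2 changed sign in 2, without siNC replicate 1 or siQk replicate 1. List medians changed sign under 1 or more alternatives for 8 of the 9 other lists, and not for the other LIM homeodomain genes.

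The shared replicate numbers were treated as names and not as pairs. The correlation of deviations from the group means was 0.213, 0.018 and -0.17 for numbers 1, 2 and 3. With the replicate number as a block, 1 gene was called, the log2 fold change of Isl1 was 0.81, 1 gene of the 6 had groups that did not overlap, 4 list genes had an unadjusted p under 0.05, and no call changed.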
